A study of Homo sapiens with 2 samples.

Results

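The genes examined here encode 10 heterogeneous nuclear ribonucleoproteins (hnRNPs), and the measurements are the NUDT21 eCLIP-seq peaks that lie in them. A peak belonged to a gene when its midpoint fell in the gene body annotated by GENCODE 44. By this rule 59 of the 20499 deposited peaks lay in HNRNPA1, HNRNPA2B1, HNRNPA3, HNRNPC, HNRNPD, HNRNPDL, HNRNPH1, HNRNPK, HNRNPM and HNRNPU. Each of the 10 genes held at least 1, but they were chosen with earlier results of these data known. That count therefore does not set them apart. The share of all protein-coding genes with a peak was not computed, and 9 of 17 other hnRNP family genes held one. The study asked whether NUDT21 contacts the transcripts whose 3' ends it processes, and for this it crosslinked protein to RNA in J-Gamma1, a T-ALL (T-cell acute lymphoblastic leukemia) line derived from Jurkat that lacks phospholipase C gamma 1. The labels give no drug or knockdown for either sample. For crosslinking the cells were kept on ice and exposed to ultraviolet C (254 nm) at a dose of 400 mJ each time, then lysed for 15 min and digested with 40 U of RNase I for 5 min at 37 °C. One library was made with a NUDT21 antibody, whose peaks are described here, and 1 from input, of which no file was used.

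There was 1 antibody library and no replicate, so the spread between libraries is unknown, no p-value was computed across peaks, and every interval below is an exact 95% interval that covers counting error only. The list carries no read totals, hence the depth is unknown, and it carries no strand, hence a peak in overlapping genes can belong to the RNA of either. Peaks also follow how much of an RNA the cells hold, which was not measured here, so a gene without peaks is not shown to lack NUDT21. Of 12 T-cell genes checked, 2 (CD3E and CD247) had a peak in an exon, against 0 of 5 B-cell and 0 of 6 myeloid and erythroid genes. The other T-cell genes, CD2, CD5, CD7 and LCK among them, had none, and the list therefore says little on the identity of the line.

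NUDT21 is the small subunit of cleavage factor I, which binds UGUA upstream of poly(A) sites and helps to choose where the transcript is cut. hnRNPs coat nascent RNA and steer its splicing, export, stability and 3' end formation. Many of their own genes are controlled through alternative exons or introns near the 3' end whose inclusion exposes the transcript to nonsense-mediated decay. The number of annotated transcripts per gene ran from 10 for HNRNPDL to 84 for HNRNPA1.

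Because UGUA is the motif that the protein recognises, the sites in the peaks are shown first. For each gene with UGUA in an exonic peak, the site is the UGUA nearest the centre of the peak with the highest fold enrichment among those that hold it. Each line gives 30 nt of the hg38 reference in RNA letters on the strand of the gene, with UGUA in capitals.
HNRNPA1 (3'UTR, chr12:54284876-54284905, plus strand): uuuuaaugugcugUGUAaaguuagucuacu
HNRNPA2B1 (3'UTR, chr7:26191067-26191096, minus strand): cugccacaaagacUGUAaagugcuucauuu
HNRNPA3 (3'UTR, chr2:177222129-177222158, plus strand): gcuggguaagguuUGUAguugacaguaaaa
HNRNPC (CDS, chr14:21234127-21234156, minus strand): ccaugaacucccgUGUAuucauugggaauc
HNRNPD (3'UTR, chr4:82353905-82353934, minus strand): uuucccccaguauUGUAgagcaagucuugu
HNRNPDL (3'UTR, chr4:82425008-82425037, minus strand): ugacuacccaaacUGUAuuuuaccaauaaa
HNRNPU (3'UTR, chr1:244842649-244842678, minus strand): cuguagaaauucaUGUAuaaauggaaccau

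HNRNPH1, HNRNPK and HNRNPM had no UGUA in any of their peaks and so have no site to show. In the sites of HNRNPA1, HNRNPA3, HNRNPD and HNRNPU the motif lay 3.5, 2.0, 2.5 and 1.0 nt from the centre of the peak. In those of HNRNPC, HNRNPA2B1 and HNRNPDL it lay 20.0, 27.0 and 28.5 nt away. Choosing the UGUA nearest the centre favours small distances, and the peaks differ in length. The HNRNPDL site also held AAUAAA, the poly(A) signal, 7 nt after the motif.

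The peaks were unevenly shared among the 10 genes. HNRNPC held 18, HNRNPU 10, HNRNPDL 8, HNRNPA2B1, HNRNPA3 and HNRNPD 5 each, HNRNPA1 3, HNRNPK and HNRNPM 2 each, and HNRNPH1 1. In all 6 of the 10 had 5 peaks or more, where 17.5% of the 6476 protein-coding genes with any peak did. The median of those 6476 genes was 2 peaks. Without peaks in an exon of another gene, HNRNPU kept 3, HNRNPA3 1 and HNRNPA2B1 4, while HNRNPC, HNRNPD and HNRNPDL kept all of theirs. The 17.5% was not recounted in this way. HNRNPC stood at rank 61 by peak count. Counts depend on gene length, so the exonic sequence under peaks was compared too. It was highest in HNRNPDL, at 18.6% of 5529 nt, and in HNRNPC, at 8.49% of 7293 nt, and lowest in HNRNPH1, at 0.506% of 9480 nt. The other 7 genes lay between 2.07% (HNRNPM) and 4.92% (HNRNPA3). Of the 10 genes, 4 lay above the median of 3.65% of the 4389 genes with an exonic peak (quartiles 1.78% and 6.94%). By this measure, over the exons of all transcripts, the genes as a group did not stand apart in coverage. In canonical exons alone, coverage was highest in HNRNPC (15.3%), then HNRNPDL (9.47%), and lowest in HNRNPH1 (2.10%). A median over other genes was not computed for canonical exons, so the group was not compared there.

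**Figure D1:**
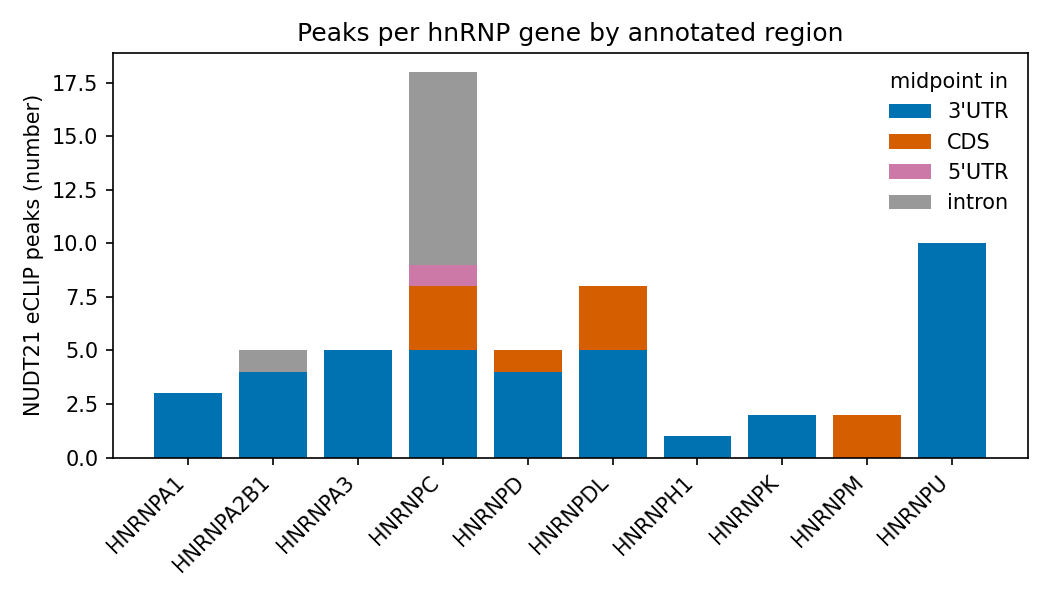
Number of NUDT21 eCLIP peaks (y axis) in each of the 10 hnRNP genes (x axis), stacked by the annotated region that holds the midpoint of the peak. HNRNPC held 18 peaks, 9 of them intronic, while the 10 peaks of HNRNPU and the 5 of HNRNPA3 were all assigned to 3'UTRs.

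By region, 39 of the 59 peaks (66.1%, interval 52.6 to 77.9) were assigned to 3'UTRs, against 27.3% of all peaks. Coding sequence (CDS) held 9 (15.3%, 7.22 to 26.99), against 21.2% of all peaks, and introns held 10 (16.9%, 8.44 to 28.97), against 38.1%. One peak lay in a 5'UTR and none in a noncoding exon. The 3'UTR share depended on the transcripts counted. It was 35.6% (23.6 to 49.1) with the canonical transcript of each gene only, where all peaks had 16.9%, and 45.8% (32.7 to 59.2) without decay and retained-intron transcripts, where all peaks had 19.2%. It thus stood above the share over all peaks under each of these annotations. By the rule, however, every hnRNP peak lies in a protein-coding gene. All peaks include those outside genes and in noncoding genes, which cannot be in a 3'UTR, so their share is lower by construction. Without HNRNPC, the gene with most peaks, it was 82.9% (67.9 to 92.8).

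Peak height is given in steps, since the deposited Score rose in whole multiples of 0.228. Of the 59 peaks 52 (88.1%, 77.1 to 95.1) reached 5 steps or more, against 42.3% of all peaks, and the 7 that did not were all in introns of HNRNPC. The 2 sets differed in their mix of regions, which was not matched. Introns held 38.1% of all peaks but 8.42% of all peaks of 5 steps or more, and 16.9% of the hnRNP peaks. Among peaks of 5 steps or more, 39 of 52 hnRNP peaks (75%, 61.1 to 85.97) were in 3'UTRs, against 42.8% of all such peaks. CDS held 9 of 52 (17.3%, 8.23 to 30.3) against 40.9%. Both shares gave 3'UTR precedence over CDS, and they were not recounted with CDS first. The median fold enrichment over the local background was 2.37 (quartiles 2.04 and 2.79), against 1.61 for all peaks. Among peaks of 5 steps or more it was 2.46 for hnRNP peaks and 2.37 for all. No hnRNP peak had a false discovery rate (FDR) under 0.05, a threshold passed by 0.0927% of all peaks. A count of 0 in 59 allows a share of up to 5.08% if up to 3 counts are allowed, or 6.06% as the upper end of the exact interval. The lowest FDR was 0.689, in HNRNPDL, and the other 58 peaks had an FDR of 1, so each peak taken alone is weak by the measure of the peak caller.

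**Figure D2:**
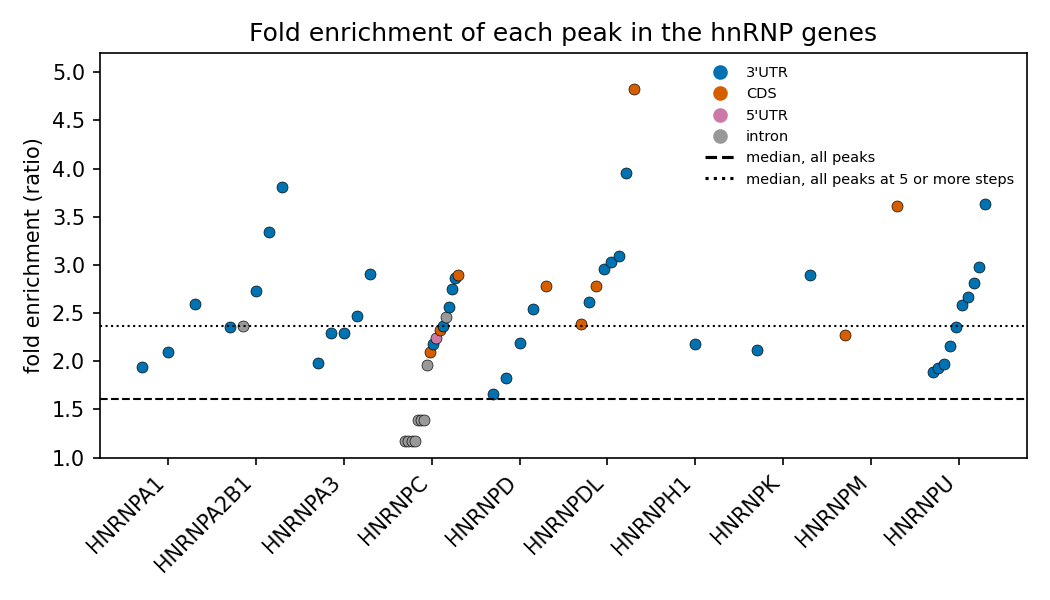
Fold enrichment over local background (y axis, ratio) of each of the 59 peaks, by gene (x axis) and coloured by region, with the median of all 20499 peaks (dashed, 1.61) and of all peaks of 5 or more steps (dotted, 2.37). The highest points belong to HNRNPDL (4.83 and 3.96) and HNRNPA2B1 (3.81), and the lowest to intron peaks of HNRNPC (1.17).

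The hnRNP A/B proteins bind UAG-containing RNA and act mainly in splice site choice. In their genes, 12 of 13 peaks lay in the last exon, within the 3'UTR. HNRNPA1 (chr12:54280193-54287088, plus strand) had 3 peaks in its 3'UTR, with midpoints 581, 993 and 2481 nt past the stop codon. All 3 also lay in an intron of another annotated gene on the same strand. Their fold enrichments were 2.09 (14 steps), 2.59 (14 steps) and 1.94 (9 steps). Of the 84 annotated transcripts only 12, 7 and 2 included these positions in an exon, so the farthest peak lay in sequence that few annotated transcripts reach. The CDS of HNRNPA1 held no peak. HNRNPA1 has 74 annotated processed copies whose reads could be confused with its own, how the mapping treated such reads was not stated, and none of the 116 pseudogenes named after 9 of the members held a peak.

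HNRNPA2B1 (chr7:26171151-26201529, minus strand), which encodes the A2 and B1 proteins, had 4 peaks in the 2412 nt of its last exon. From the stop codon outwards they reached 2.73 (13 steps), 3.81 (19 steps), 2.36 (10 steps) and 3.34 (16 steps). The second of them, at chr7:26191077-26191140, had the highest fold enrichment outside HNRNPDL, and its midpoint was exonic in 44 of 49 transcripts, of which 39 are annotated as decay or retained-intron transcripts. The outermost, at chr7:26190354-26190422, had its midpoint 8 nt from the nearest annotated transcript end, which thus lay inside the peak, and held 1 UGUA. The remaining peak (chr7:26185869-26185916, 2.37, 7 steps) lay in an intron of longer HNRNPA2B1 transcripts, beyond the end of the canonical one, but also in the 3'UTR of NFE2L3 on the opposite strand, which encodes a CNC-family transcription factor. It had no UGUA on the HNRNPA2B1 strand and 1 on the NFE2L3 strand.

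HNRNPA3 (chr2:177212694-177223959, plus strand), a close relative of A1 and A2, had all 5 peaks in the 4552 nt of its last exon, and fold enrichment ran from 1.99 to 2.91. The highest (chr2:177220330-177220388, 11 steps) was the nearest to the stop codon, 1060 nt past it, and the lowest (6 steps) the farthest, at 3457 nt. The 3 farther peaks held 1 UGUA each and the 2 nearer ones none. The first 4 also fell in an annotated 3'UTR of NFE2L2, the gene of the stress-response factor NRF2, which runs on the opposite strand. That 3'UTR belongs to longer NFE2L2 transcripts, and the canonical one ends before these peaks.

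HNRNPC, the subunit of the hnRNP C tetramer that binds uridine tracts, showed the widest spread (chr14:21209136-21269494, minus strand). Its exonic peaks were of moderate height, from 7 to 16 steps, with fold enrichments of 2.09 to 2.90. Of these, 4 lay in the last exon, at 136, 1061, 1198 and 1620 nt past the stop codon, and none of the 4 held UGUA. The CDS of the canonical transcript held a peak in exon 3 (2.32, 16 steps), exon 6 (2.09, 14 steps) and exon 7 (2.56, 9 steps). The exon 7 peak was counted as 3'UTR, and only through decay or retained-intron transcripts. The highest fold enrichment in the gene, 2.90 at chr14:21230935-21230985 (12 steps), was assigned to CDS at a position that is exonic in 10 of 32 transcripts, 2 of them decay or retained-intron transcripts, and intronic in the canonical one. A peak in a 5'UTR (chr14:21262618-21262700, 2.24, 7 steps) likewise lay outside the canonical exons.

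The introns of HNRNPC held 9 peaks, 7 of them at 1 or 2 steps and between 108 and 387 nt long. These 7 had fold enrichments of 1.17 or 1.39, the lowest of all hnRNP peaks. Among them 2 pairs started exactly 476 nt apart, the most common distance between neighbouring peaks in the whole list, where it occurred 2001 times, and the members of each pair had equal lengths of 344 and 387 nt. Of the other 2, 1 was a peak of 9 steps (chr14:21230290-21230346, 2.46) with 28 of its 57 nt in exon 5 and its midpoint 1 nt outside that exon. The last was a peak of 5 steps (chr14:21259248-21259312, 1.96) in intron 2, which is 29081 nt long.

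HNRNPD and HNRNPDL encode proteins that bind AU-rich elements and affect mRNA turnover, and they are neighbours on chromosome 4. Both have an intron inside the 3'UTR of the canonical transcript, of 1149 nt in HNRNPD and 1153 nt in HNRNPDL, and peaks lay in it in both genes. HNRNPD (chr4:82352498-82374503, minus strand) had 2 peaks in this intron (2.19 with 8 steps and 1.82 with 6 steps) and 2 in the last exon (2.54 with 10 steps and 1.66 with 5 steps). The 2 intron positions were exonic in 5 and 6 of 18 transcripts. The peak outside the 3'UTR lay at the border of exon 1 and was the tallest of the gene, with 20 steps and 2.78. It held no UGUA, while 3 of the 4 peaks in the 3'UTR held 4 together.

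HNRNPDL (chr4:82422565-82430462, minus strand) had the highest peaks of the 10 genes. Its 8 peaks had 15 to 30 steps and fold enrichments of 2.38 to 4.83, and 5 of the 10 highest fold enrichments of all hnRNP peaks were in this gene. The highest was in exon 1 (chr4:82429229-82429376, 4.83, 29 steps, p-value of the peak caller 2.5e-06), and exons 2, 4 and 6 held 1 each, with 27, 20 and 30 steps. The peak in exon 6 was counted as 3'UTR through decay transcripts. The other 4 lay in the intron of the 3'UTR, at fold enrichments of 2.96, 3.03, 3.96 and 3.10 along the direction of transcription, in stretches that are exonic in 2, 5, 1 and 1 of the 10 transcripts. The last exon, 2315 nt of 3'UTR, held 0 peaks. In the peak nearest to that exon, chr4:82424947-82425155, were 2 UGUA and 2 AAUAAA, and the UGUA shown above had AAUAAA 7 nt downstream.

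**Figure D3:**
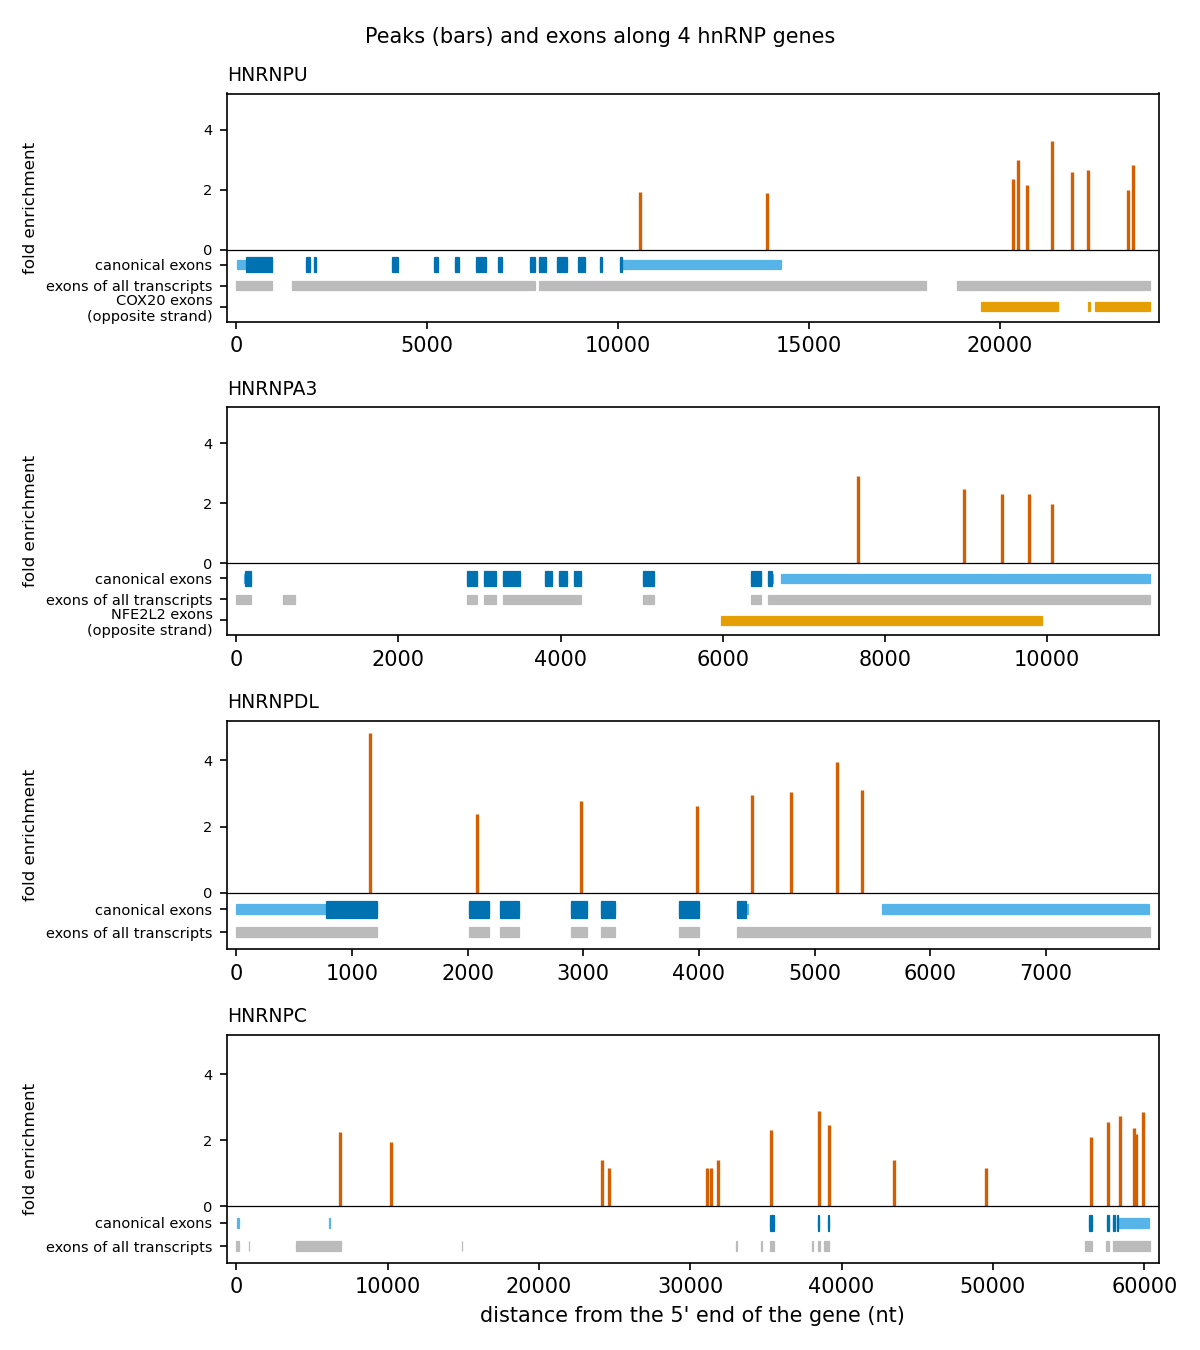
Peaks of HNRNPU, HNRNPA3, HNRNPDL and HNRNPC as bars at the midpoint, with fold enrichment on the y axis (ratio) and the distance from the 5' end of the gene in nt on the x axis. Below are the canonical exons (dark where coding), the exons of all transcripts, and exons of the overlapping gene on the opposite strand. The 4 last peaks of HNRNPDL lie in the intron before its last exon, and 8 of the 10 peaks of HNRNPU lie beyond its canonical end, over COX20.

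The next 3 genes had few peaks. HNRNPH1 (chr5:179614178-179634784, minus strand), whose protein binds runs of G, had 1, in exon 11 of 14 (chr5:179616868-179616915, 2.18, 7 steps), assigned to a 3'UTR only through decay or retained-intron transcripts and to CDS in the canonical one. That peak was 41.7% G on the gene strand, against 22.8% in the exonic sequence of the 10 genes outside peaks. It was not alone in this, as the HNRNPD peak at exon 1 was 43.4% G. A link to what the encoded protein binds was not tested. HNRNPK (chr9:83968083-83980631, minus strand), which binds C-rich RNA through KH domains, had 1 in exon 11 of 17 (chr9:83971855-83971996, 2.90, 12 steps), likewise coding in the canonical transcript, and 1 in its 3'UTR (chr9:83968747-83968796, 2.12, 7 steps). HNRNPM (chr19:8444767-8489114, plus strand), a splicing regulator, had 1 each in coding exon 1 (2.28, 8 steps) and exon 2 (chr19:8455497-8455600, 3.61, 13 steps), the latter among the 10 highest fold enrichments.

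HNRNPU (chr1:244840638-244864560, minus strand) encodes scaffold attachment factor A, which links RNA to chromatin. All 10 of its peaks were assigned to 3'UTRs, but 8 lay between 6093 and 9224 nt beyond the end of the canonical transcript, in sequence that is exonic in 3 of 32 transcripts, all 3 annotated as decay or retained-intron transcripts. The same 8 lay in the body of COX20, a cytochrome c oxidase assembly gene on the plus strand, 7 of them in its exons and 5 in exons of its canonical transcript. Fold enrichments of the 8 ran from 1.97 to 3.63, and the highest (chr1:244843137-244843226, 13 steps) was centred in the canonical 3'UTR of COX20. Which of the genes gave the RNA cannot be told apart without strand. The remaining 2 were in the 3'UTR of the canonical HNRNPU transcript, at 1.93 (chr1:244853942-244854041, 11 steps) and 1.89 (chr1:244850626-244850673, 6 steps), the lowest of the 10. The former held 3 UGUA in 100 nt. They are shown because, unlike the HNRNPU site above, they are in sequence not shared with COX20. This peak was chosen after its values were seen.
HNRNPU (3'UTR, chr1:244854014-244854043, minus strand): gcaaccagauucaUGUAaggacuaaguggu
HNRNPU (3'UTR, chr1:244853974-244854003, minus strand): ugcauuaagacucUGUAcugcucauauuac
HNRNPU (3'UTR, chr1:244853944-244853973, minus strand): acuccauccucucUGUAguuugcuggguag

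Over the 10 genes, 13 of 59 peaks (22.0%) lay in an exon of another gene: 7 in HNRNPU, 4 in HNRNPA3 and 1 each in HNRNPA2B1 and HNRNPM. In the gene lists compared below, this share was 34.1% (14 of 41) for other hnRNP family genes and 4.48% (3 of 67) for SR splicing factor genes. It was not computed in the same way over all peaks. Without those 13 peaks 46 were left, 60.9% (45.4 to 74.9) of them in 3'UTRs, and their median fold enrichment was 2.36. Of the 109 coding exons of the canonical transcripts, 12 held a peak in their CDS, 4 of them in HNRNPDL and 3 in HNRNPC. None was found in the coding exons of HNRNPA1, HNRNPA2B1, HNRNPA3 or HNRNPU. The canonical 3'UTRs, 22162 nt in all, held 21 peaks. Of the 39 peaks assigned to 3'UTRs, 21 were in these, 6 in canonical introns, 4 in canonical CDS and 8 beyond the canonical end.

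The 3 highest fold enrichments belonged to tall peaks, with 29 steps (4.83) and 23 steps (3.96) in HNRNPDL and 19 steps (3.81) in HNRNPA2B1. Other tall peaks had lower values. The tallest, with 30 steps in exon 6 of HNRNPDL, had a fold enrichment of 2.61, and the peak of 27 steps in exon 2 had 2.38, while 13 steps gave 3.63 in HNRNPU and 3.61 in HNRNPM. If fold enrichment is Score plus 1 over background plus 1, which is how the peak caller usually forms it, the implied background ranged from 0.0499 to 2.00 in Score units, with a median of 0.208. It was within 0.01 of 2 in 2 peaks, both of HNRNPDL, and within 0.01 of 1 in 5. The 8 HNRNPU peaks over COX20 had an implied background of 0.0865 to 0.144, against 0.256 and 0.819 for the 2 in the canonical 3'UTR of HNRNPU. These backgrounds are inferred from 2 deposited columns and were not measured directly.

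**Figure D4:**
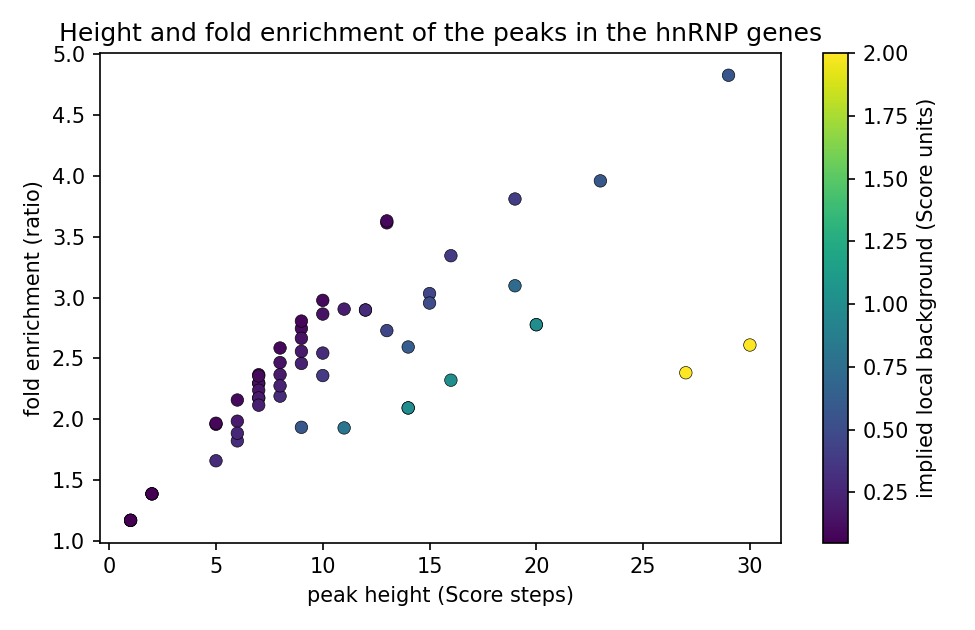
Height in Score steps (x axis) and fold enrichment (y axis, ratio) of the 59 hnRNP peaks, coloured by the implied local background in Score units. Peaks of 27 and 30 steps with the highest background sit at 2.38 and 2.61, below peaks of 13 steps with low background at 3.61 and 3.63.

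UGUA was present on the gene strand in 25 of the 59 peaks (42.4%, 29.6 to 55.9), against 44.4% of the 18875 peaks whose gene strand was unambiguous, and on the opposite strand in 22 (37.3%, 25.04 to 50.9). Peaks over all regions are longer (median 155 nt against 69 nt in the hnRNP genes) and longer peaks hold more motifs by length alone. Among peaks of 5 or more steps, 20 of 52 hnRNP peaks held it (38.5%, 25.3 to 52.98), against 27.2% of all such peaks, a value inside that interval. In 3'UTR peaks it was 16 of 39 (41.03%, 25.6 to 57.9) against 40.9%, and in CDS peaks 3 of 9 (33.3%, 7.49 to 70.07) against 21.0%. Per length, the exonic sequence in peaks held 25 UGUA in 3836 nt, 6.52 per kb (4.22 to 9.62), and the rest of the exonic sequence of the same genes held 481 in 85148 nt, 5.65 per kb (5.16 to 6.18). The ratio of 1.15 had an interval of 0.739 to 1.72, which includes 1, so no surplus of UGUA was detectable with this number of motifs. AAUAAA was found in 2 of the 59 peaks (3.39%, 0.413 to 11.7), 1 in HNRNPD and 1 in HNRNPDL. In both it followed a UGUA in the same peak, after 12 nt in HNRNPD. Of all peaks of known gene strand 10.1% held AAUAAA, a value inside the interval, and the difference in peak length applies here too. In the lists compared below, AAUAAA was in 0 of 41 peaks of other hnRNP family genes and 8 of 67 (11.9%) of SR splicing factor genes. Peaks were slightly richer in A (31.1% against 28.2%) and C (20.5% against 18.1%) and poorer in U (26.9% against 30.98%) than the other exonic sequence of the genes.

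The midpoints of the 39 3'UTR peaks lay 8 to 1757 nt from the nearest annotated transcript end, with a median of 365 nt. Within 150 nt of an end were 14 (35.9%, 21.2 to 52.8), against 27.0% of all 3'UTR peaks, which is inside the interval. Genes with many annotated transcripts have more ends to be near, and this was not corrected for.

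As the nearest comparison, 17 other genes of the hnRNP family and 12 SR splicing factor genes were examined in the same way. Of the 17, 9 held 41 peaks, and the other 8 (HNRNPA0, HNRNPAB, HNRNPF, HNRNPH2, HNRNPL, HNRNPR, PTBP1 and PCBP1) held none. SYNCRIP, which encodes hnRNP Q, had 15 of the 41. Of the 12 SR genes, 8 held 67 peaks, 24 of them in SRSF10 and 22 in SRSF11. The 3'UTR share was 51.2% (35.1 to 67.1) in the other hnRNP family genes and 64.2% (51.5 to 75.5) in the SR genes, and that of peaks with 5 or more steps was 85.4% (70.8 to 94.4) and 94.03% (85.4 to 98.3). These intervals overlapped those of the 10 hnRNP genes, and so did the intervals for UGUA, at 36.6% (22.1 to 53.1) and 44.8% (32.6 to 57.4). With CDS taking precedence over 3'UTR, the 3'UTR share was 34.1% (20.1 to 50.6) in the other family genes and 46.3% (34.0 to 58.9) in the SR genes, against 59.3% (45.7 to 71.9) in the 10 hnRNP genes. Of the 41 peaks of the other family genes, 29 (70.7%, 54.5 to 83.9) lay in the body of another gene, against 18 of 59 (30.5%, 19.2 to 43.9) in the 10 genes and 9 of 67 (13.4%, 6.33 to 23.97) in the SR genes. No difference between the 10 genes and either list was tested.

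**Figure D5:**
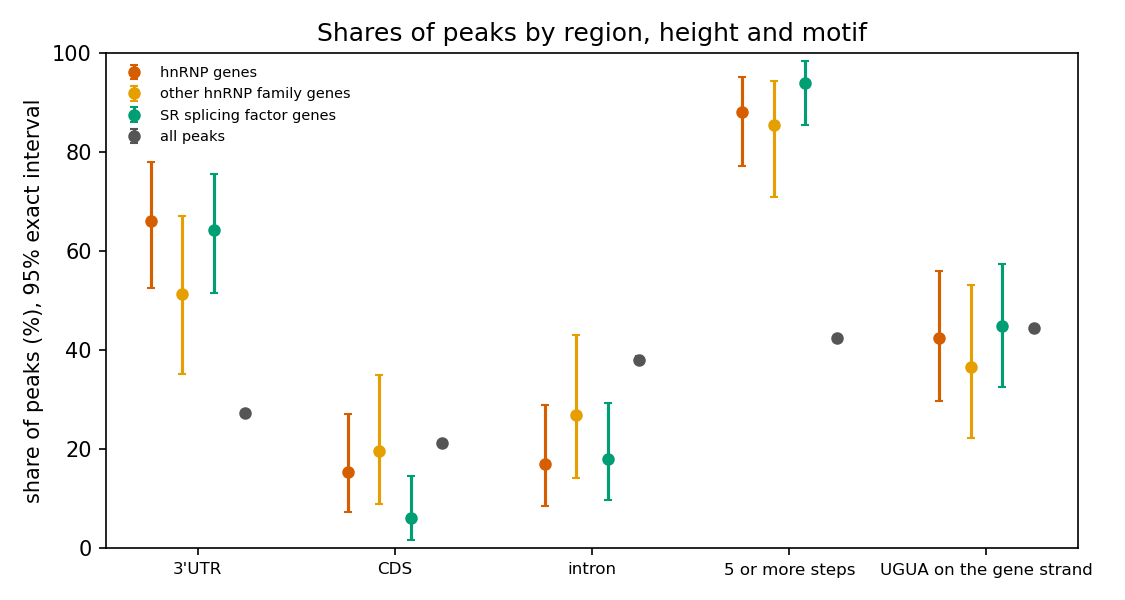
Share of peaks in percent (y axis) by region, with 5 or more Score steps and with UGUA on the gene strand, for the 10 hnRNP genes (59 peaks), other hnRNP family genes (41), SR splicing factor genes (67) and all peaks. Bars are exact 95% intervals, and those of the 3 gene lists overlap in every category, while all peaks stand lower in 3'UTR share (27.3%) and in peaks of 5 or more steps (42.3%). The share with 5 or more steps was not matched for the mix of regions.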

How the data were processed

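The authors trimmed reads with fastp, removed duplicates by molecular identifier and ribosomal RNA reads, mapped to hg38 and called peaks with MACS2 (local windows of 1000 and 10000 nt, stated q-value threshold of 0.05). Most deposited peaks carry an FDR above that threshold, and the reason was not stated. The aligner and the control of the peak calling are not given in the sources used here. Fold enrichment, as deposited, is the ratio of a peak to its local background, the deposited p-value and FDR (q-value) belong to each peak, and the deposited Score is a signal height whose unit is not stated. Positions are counted from 1, and no peak passed a chromosome end of the reference.

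Midpoints were assigned to regions of GENCODE 44 with 3'UTR taking precedence over 5'UTR, then CDS (stop codon included), noncoding exon and intron, within each hnRNP gene over all transcripts. For all peaks, UTRs and CDS came from protein-coding genes other than readthrough genes. The canonical transcript is Ensembl's. Shares have Clopper-Pearson intervals and densities exact Poisson intervals (95%). A share of 0 allows up to 3 counts. The step of Score is a least-squares fit. Counting was checked on simulated data. Intervals came from scipy 1.17.1, sequences were read with pysam 0.24.0 and figures drawn with matplotlib 3.10.9, under Python 3.11.15 with pandas 2.3.3 and numpy 2.4.6.

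The text names all 10 genes, their highest peaks and 1 UGUA site for each of the 7 genes with UGUA in an exonic peak, plus 3 sites of HNRNPU chosen after their values were seen. Members, lists and settings were chosen with earlier results of these data known. Alternatives were any overlap with the gene, CDS first, 1 transcript per gene, no decay or retained-intron transcripts, peaks of 5 steps, FDR under 0.05 or fold enrichment of at least 2, merging within 100 nt, central 100 nt, extension by 50 nt, UGUAA or UGUAU, and omission of HNRNPC, of peaks in another gene or, added after the data had been seen, in another gene's exon.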

Additional observations from a re-analysis of the deposited data

How the results depend on the processing

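Of 73 values under 14 alternative settings, 64 stayed within the interval of the reported value (within 1.5 times for the peak count and the covered share). The number of peaks was 0 at an FDR under 0.05, where no share could be formed. The 3'UTR share moved to 35.6% with 1 transcript per gene and 45.8% without decay and retained-intron transcripts, by their construction, and to 82.9% without HNRNPC. The share of peaks with 5 or more steps was 100% without HNRNPC and among peaks of fold enrichment of at least 2. The latter was fixed in advance if fold enrichment is Score plus 1 over background plus 1. Such peaks then need 5 or more steps. The share with UGUA was 67.8% with peaks extended by 50 nt and 27.1% for UGUAA or UGUAU. Exonic peaks outside canonical exons made up 32.7% (16 of 49) and, without decay and retained-intron transcripts, 19.5%. The UGUA density ratio lay on the other side of 1, at 0.896 (0.472 to 1.55), for UGUAA or UGUAU, and otherwise between 1.11 and 1.29, with every interval including 1. No paired analysis was possible because there was 1 library and no test. Unknown depth, missing strand and the lack of a replicate limit every value.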
